A study of Mus musculus with 12 samples.

Results

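The IFIT family with viperin and Cmpk2 is a set of 6 interferon-stimulated genes: Ifit1, Ifit2, Ifit3, Ifit3b, Rsad2 (which encodes viperin) and Cmpk2. They were chosen by name among 43131 genes, and for each the transcript with the highest total count was taken. The data are RNA sequencing of bone marrow-derived macrophages (BMDMs) from C57BL/6 mice, grown from marrow in M-CSF at 50 ng/mL over 7 days. Both genotypes carry floxed tlr4 alleles: tlr4f/f, which keeps the gene, and tlr4f/f-lysM-cre (cre in what follows), in which Cre driven by the lysM (Lyz2) locus removes it in myeloid cells. Cells of each genotype were left without LPS or received LPS, the ligand of TLR4, at 1 µg/mL for 6 h, and there were 3 libraries for each of the 4 groups, 12 in all. The labels do not say that these came from separate mice, so the p-values measure only the spread between these libraries.

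These genes stand at the end of a relay. LPS bound by TLR4 acts through the adaptors Ticam1 and Ticam2 and the kinase Tbk1 on Irf3, which switches on Ifnb1; the interferon-beta made then acts through its receptor on factors that include Stat2 and Irf9, which bind a DNA element called the ISRE before interferon-stimulated genes. IFIT proteins bind foreign RNA and hinder its translation. Viperin turns a nucleotide into a chain terminator of viral RNA synthesis, and Cmpk2 is a mitochondrial nucleotide kinase encoded next to it.

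The headings of the columns need care before any direction is read. Tlr4, the deleted gene, had 4486 to 9136 counts under the heading LPS- tlr4f/f, 3041 to 4367 under LPS- cre, 1086 to 1484 under LPS+ tlr4f/f and 891 to 1191 under LPS+ cre. Lyz2, the gene whose locus drives Cre, had between 221787 and 1244818 counts under both LPS- headings and between 494 and 3272 under both LPS+ headings. Il1b, a gene that LPS induces, had 52432 to 306385 counts under LPS- cre and 97411 to 113136 under LPS+ cre, but 4 to 405 under both tlr4f/f headings. With the headings LPS- cre and LPS+ tlr4f/f exchanged, Tlr4 and Lyz2 would be low in both cre groups and Il1b high in both LPS groups. Which exons the floxed allele loses is not given in the sources used here. Each group is therefore named as headed, and each comparison is given in both readings. Between 33577087 and 56445268 counts stood behind each library (median 45330681), and the members had between 130 and 341421 counts per library.

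The members lie in 2 clusters (mm10 coordinates). Ifit2 (chr19:34550694-34576419), Ifit3 (chr19:34583531-34588731), Ifit3b (chr19:34607970-34613401) and Ifit1 (chr19:34640871-34650009) follow each other on the plus strand within 99316 bases. Rsad2 (chr12:26442746-26456452, minus strand) and Cmpk2 (chr12:26469204-26479837, plus strand) lie back to back, 12752 bases apart.

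The stretches before the start sites of 4 members are shown because they hold the core of the ISRE, the element bound by Stat2 and Irf9 in a complex. The core was searched as GAAANNGAAA or, on the other strand, TTTCNNTTTC, in windows of 250 bases before to 50 bases after each RefSeq start site (RefSeq promoters, GRCm38.p6). The 250 bases before the start are printed in the direction of the gene, and capitals mark the core. They are chr19:34640639-34640888 (plus strand) for Ifit1, chr19:34583279-34583528 (plus strand) for Ifit3, chr19:34607707-34607956 (plus strand) for Ifit3b and chr12:26456453-26456702 (minus strand) for Rsad2.
Ifit1: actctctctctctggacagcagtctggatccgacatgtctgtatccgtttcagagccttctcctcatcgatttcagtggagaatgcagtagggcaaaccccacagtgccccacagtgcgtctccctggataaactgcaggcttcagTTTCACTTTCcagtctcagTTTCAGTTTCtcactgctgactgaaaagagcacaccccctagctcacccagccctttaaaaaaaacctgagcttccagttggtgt
Ifit3: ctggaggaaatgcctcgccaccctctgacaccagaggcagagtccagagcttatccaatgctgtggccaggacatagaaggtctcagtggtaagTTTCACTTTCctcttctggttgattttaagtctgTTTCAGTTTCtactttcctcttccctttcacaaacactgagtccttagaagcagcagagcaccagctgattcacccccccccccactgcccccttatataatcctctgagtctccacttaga
Ifit3b: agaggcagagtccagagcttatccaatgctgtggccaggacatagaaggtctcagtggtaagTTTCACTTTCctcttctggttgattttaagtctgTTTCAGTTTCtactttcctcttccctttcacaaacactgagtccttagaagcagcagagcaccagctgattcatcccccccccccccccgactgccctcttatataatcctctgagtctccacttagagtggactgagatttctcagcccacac
Rsad2: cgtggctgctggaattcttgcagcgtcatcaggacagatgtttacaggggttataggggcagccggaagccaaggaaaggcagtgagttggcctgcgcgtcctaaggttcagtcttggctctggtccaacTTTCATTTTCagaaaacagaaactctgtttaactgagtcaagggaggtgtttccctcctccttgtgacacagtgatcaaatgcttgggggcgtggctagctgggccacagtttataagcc

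Ifit1, Ifit3 and Ifit3b each held 2 cores, with the same 10 letters in the same order: TTTCACTTTC and then TTTCAGTTTC. In Ifit1 they began 104 and 85 bases before the start, in Ifit3 156 and 122, and in Ifit3b 188 and 154. Rsad2 held 1 core, TTTCATTTTC, 120 bases before its start. No match stood in the windows of Ifit2 (which has 2) or Cmpk2, which says only that these letters are not in those windows. Among all 32851 windows, 3.44% held a core and 0.225% held more than 1; counted by gene over any window, as for the members and the list, 3.99% of 27025 genes held a core and 0.266% held more than 1. Of the 25 genes of the interferon pathway list described further on, 21 had a window and 8 of these held a core. The Ifit3 and Ifit3b windows, laid over each other at their first core (268 bases), were 93.8% identical, so their cores are not independent examples. The cores of Ifit1 lie at chr19:34640785-34640794 and chr19:34640804-34640813 and are also those of Ifit1bl2, a relative that starts there in the opposite direction.

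**Figure D1:**
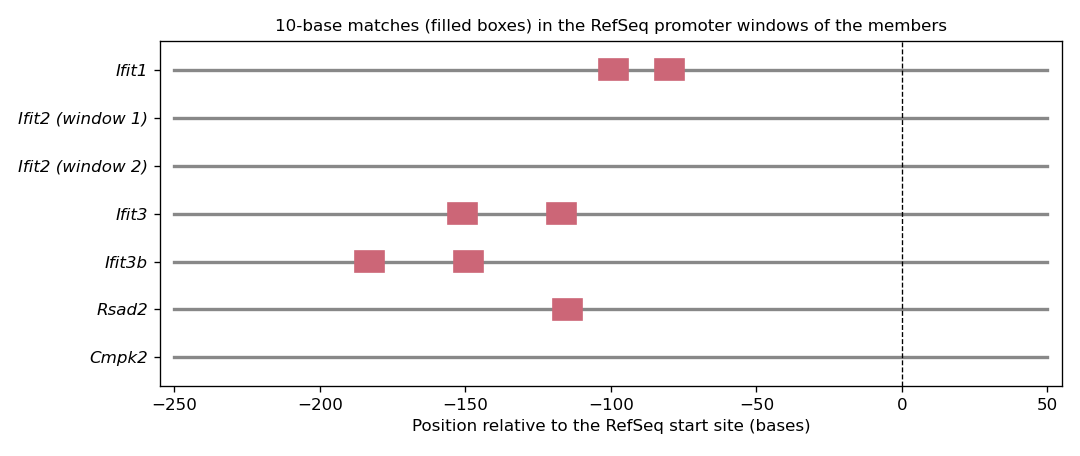
Positions of the ISRE core (filled boxes, 10 bases each) in the RefSeq promoter windows of the members, in bases from the start site (dashed line). Ifit1, Ifit3 and Ifit3b have 2 boxes, Rsad2 has 1, and the windows of Ifit2 and Cmpk2 have none.

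Every member had the same order of levels: highest under LPS- cre, then LPS+ cre, then LPS- tlr4f/f, and lowest under LPS+ tlr4f/f, and for no member did the ranges of neighbours in this order overlap. Of all 15775 genes kept over the 12 libraries, 2.29% stood in this order without overlap and 6.57% had no overlap in any order. Values are CPM, read counts scaled to the size of the library with TMM factors, for replicates 1, 2 and 3 of a heading in turn. In bulk RNA, fewer cells that express a gene and less RNA per cell cannot be told apart.

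Ifit1, which binds RNA whose cap lacks the host's methyl marks, was at 148, 63.2 and 48.3 CPM under LPS- tlr4f/f, at 1958, 2493 and 2279.6 under LPS- cre, at 23.1, 21.7 and 20.9 under LPS+ tlr4f/f, and at 945, 1071 and 1292 under LPS+ cre. The groups did not overlap, and the first library of LPS- tlr4f/f stood above the others of its group. The group means were 86.6 ± 53.9, 2243 ± 270, 21.9 ± 1.11 and 1102.5 ± 176 CPM (SD, n = 3 each).

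Ifit2, a family member known to restrict RNA viruses in the nervous system, was at 127, 173 and 64.9 CPM under LPS- tlr4f/f, at 3042, 5724 and 4283 under LPS- cre, at 57.6, 59.2 and 39.0 under LPS+ tlr4f/f, and at 1473, 1605 and 1730.5 under LPS+ cre. Here the gap between the lower groups was narrow: the lowest LPS- tlr4f/f library lay at 64.9 CPM and the highest LPS+ tlr4f/f library at 59.2. The means were 121.7 ± 54.4, 4350 ± 1343, 51.9 ± 11.2 and 1603 ± 129 CPM (SD, n = 3 each).

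Ifit3, which associates with other IFIT proteins, was at 168, 106 and 70.2 CPM under LPS- tlr4f/f, at 1454, 1675 and 1424 under LPS- cre, at 31.1, 28.6 and 22.01 under LPS+ tlr4f/f, and at 379.6, 392 and 473 under LPS+ cre. Ifit3b, its close copy in the mouse, was at 30.6, 11.4 and 15.7 CPM under LPS- tlr4f/f, at 255, 249 and 257 under LPS- cre, at 3.23, 3.33 and 2.70 under LPS+ tlr4f/f, and at 43.6, 42.5 and 57.6 under LPS+ cre. Both followed the order of the other members at their own heights. Their coding sequences were 99.1% identical over 1212 bases, and 296 of the 1596 stretches of 150 bases (the read length) in the GENCODE transcript of Ifit3, 18.5%, also occur in Ifit3b. How the counting divided such reads between them is not given in the sources used here, so their separate levels are uncertain. No other pair of members shared such a stretch, and Ifit1 shared 31 of its 2507 with its relative Ifit1bl2.

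Rsad2 reached the highest level of all members. It was at 90.2, 92.1 and 35.9 CPM under LPS- tlr4f/f, at 6722, 10679 and 7228 under LPS- cre, at 31.6, 29.5 and 24.6 under LPS+ tlr4f/f, and at 1634, 1877 and 2306 under LPS+ cre. Cmpk2, its neighbour, was at 96.3, 104 and 56.9 CPM under LPS- tlr4f/f, at 5111, 9395 and 4831 under LPS- cre, at 40.1, 42.1 and 33.3 under LPS+ tlr4f/f, and at 981, 1101 and 1380.3 under LPS+ cre. In both genes the second library of LPS- cre stood above the other two of its group, and the third library of LPS- tlr4f/f stood below the others, as it did for Ifit1, Ifit2 and Ifit3.

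**Figure D2:**
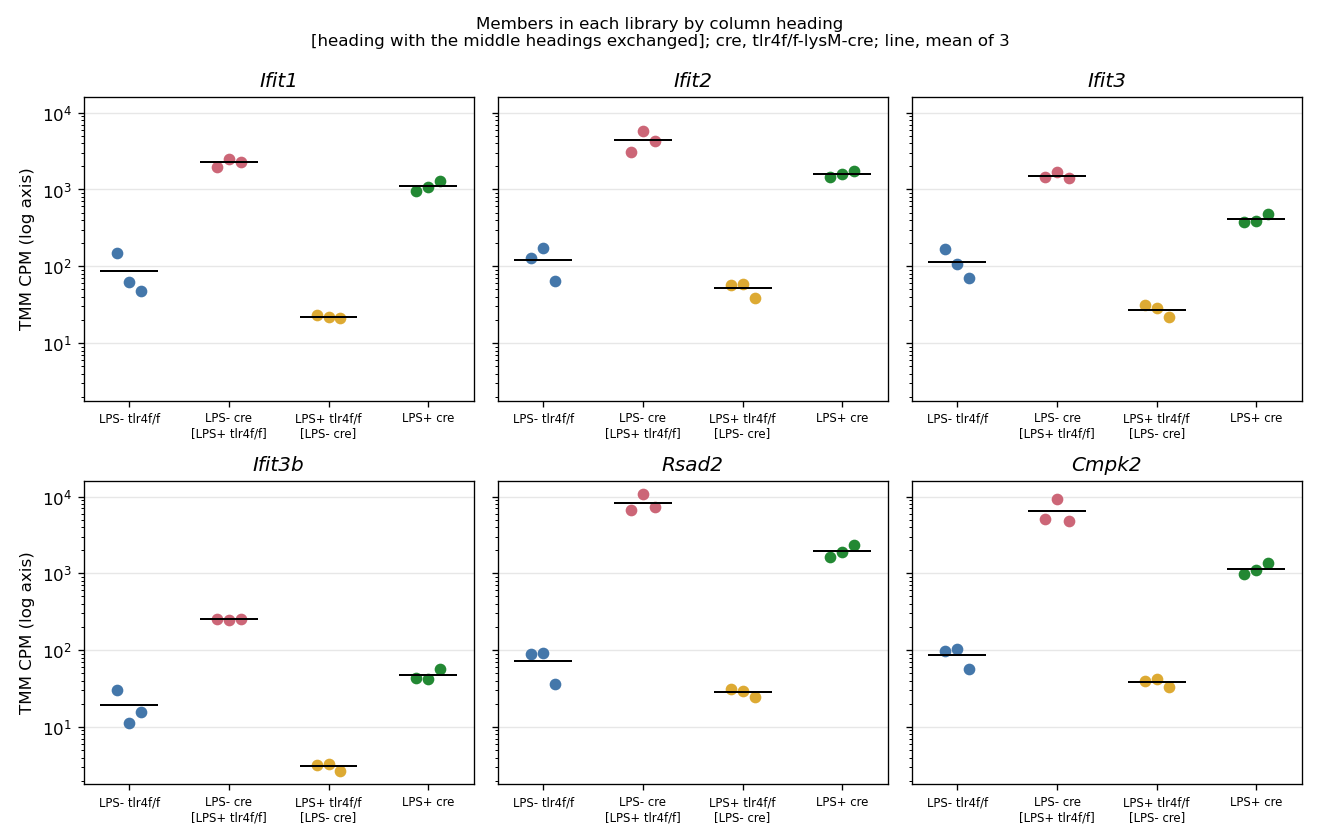
CPM of each member in each of the 12 libraries on a log axis, by column heading, with the exchanged heading in square brackets. Points are libraries and lines are means of 3; in all 6 panels the groups do not overlap and stand in the same order.

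The first comparison set LPS- cre against LPS- tlr4f/f. As headed, this asks what the loss of tlr4 does without LPS; with the headings exchanged, it asks what LPS does in tlr4f/f BMDMs. All 6 members were higher in the LPS- cre libraries. Rsad2 rose most, 111.7-fold (log2 fold change 6.80, SE 0.541, adjusted p = 6.46e-04), and Cmpk2 74.2-fold (6.21, SE 0.467, adjusted p = 6.07e-04). Ifit2 rose 35.4-fold (5.15, SE 0.497, adjusted p = 0.001003) and Ifit1 25.7-fold (4.68, SE 0.507, adjusted p = 0.00133, and 5.32 without replicate 1 of LPS- tlr4f/f). Ifit3 and Ifit3b rose 13.1-fold each. P-values came from the quasi-likelihood F-test of edgeR, adjusted by Benjamini and Hochberg's method over all genes tested, and a call needed more than a 2-fold change at an adjusted p below 0.01. All 6 members were called higher, against a background of 9.25% of 14635 genes called higher and 7.81% called lower. Their median log2 fold change was 4.91, and that of all genes tested was -0.08. The sum of 8 neutrophil markers was also highest under LPS- cre, at 14.7 to 186 CPM, against 0.561 to 13.2 under LPS- tlr4f/f and at most 7.64 elsewhere. Most of it came from S100a8, at 8.914 to 125 CPM against 0.467 to 8.911 under LPS- tlr4f/f, and from S100a9. S100a9 was at 1.80 to 32.9 CPM against 0.0561 to 2.25, which overlap. Mpo was not highest there, at 0.134 to 1.37 CPM against up to 2.86 under LPS- tlr4f/f. Camp was at 0.532 to 3.74 CPM against 0.0187 to 0.177 under LPS- tlr4f/f. Ngp (0.644 to 21.6 CPM against 0.0187 to 2.23) and Elane overlapped between these groups, and Ly6g and Retnlg reached at most 0.0313 CPM in any library. The 5 fibroblast markers summed to between 137 and 1462 CPM under LPS- cre and 8.69 to 655 under LPS- tlr4f/f, which overlap, and to at most 43.2 elsewhere. Among them, only Dcn was higher under LPS- cre without overlap, at 5.19 to 51.6 CPM against 0.690 to 4.34. The part of the neutrophil and fibroblast markers in the members' values was not tested. Macrophage markers (8 of 8 over 1 CPM in every library) summed to between 17890 and 21364 CPM under LPS- cre and between 13763 and 29499 under LPS- tlr4f/f, where Lyz2 alone spread from 6567 to 23264 CPM. Of these 8, Adgre1 (2925 to 4381 CPM against 673 to 2328) and Cd14 (2613 to 5111 against 844 to 1250) were higher under LPS- cre without overlap. So were the sums of conventional (2.91 to 6.10 CPM against 0.224 to 0.393) and plasmacytoid dendritic cell markers (2.44 to 9.28 against 0.610 to 0.855). The part of all these in the members' values was not tested either.

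The second comparison set LPS+ cre against LPS+ tlr4f/f. As headed, the genotypes differ here in the presence of LPS; with the headings exchanged, this is the effect of LPS in cre BMDMs. All 6 members were again higher, with SEs of 0.135 to 0.198 where those of the first comparison were 0.370 to 0.541. Rsad2 rose 67.6-fold (log2 fold change 6.08, SE 0.186), Ifit1 50.1-fold (5.65, SE 0.135), Ifit2 30.8-fold (4.94, SE 0.198) and Cmpk2 29.9-fold (4.90, SE 0.175). Ifit3b rose 15.6-fold and Ifit3 15.2-fold. Their adjusted p in edgeR lay between 3.59e-09 and 2.59e-06, and all 6 were called higher, where 10.8% of 14540 genes were called higher and 10.9% lower. The members' median log2 fold change was 4.92 and that of all genes was -0.02. Of the neutrophil markers, S100a8 (3.21 to 4.80 CPM against 1.72 to 2.23) and Camp were higher under LPS+ cre without overlap. Mpo (0.208 to 0.511 CPM against 1.24 to 1.84) and Elane were lower there without overlap. The neutrophil sum overlapped between these groups, at 4.55 to 6.61 CPM under LPS+ tlr4f/f and 5.41 to 7.64 under LPS+ cre. Fibroblast markers did not, at 19.9 to 24.5 and 29.3 to 43.2 CPM in the same order, nor did macrophage markers, at 4417 to 4682 and 7801 to 8026 CPM, and the part of either in the members' values was not tested. Adgre1 (623 to 628 and 2044 to 2252 CPM) and Cd14 (493 to 552 and 1967 to 2156 CPM) made most of the macrophage difference. Of the 8 macrophage markers, 6 were higher without overlap, Itgam overlapped, and Cd68 was lower, at 582 to 647 CPM under LPS+ cre against 737 to 818. Conventional dendritic cell markers summed to 2.56 to 3.03 CPM under LPS+ cre against 0.241 to 0.650, without overlap. Those of plasmacytoid dendritic cells summed to 4.88 to 5.71 against 2.13 to 3.03. The part of the neutrophil and dendritic cell markers in the members' values was not tested.

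LPS+ cre was then set against LPS- cre. As headed, this is the effect of LPS in cre BMDMs; with the headings exchanged, it is the effect of the genotype in the presence of LPS, cre against tlr4f/f. All 6 members fell. Cmpk2 was 5.52-fold lower (log2 fold change -2.46, SE 0.295, adjusted p = 0.00317 in edgeR) and Ifit3b 5.27-fold lower (-2.40, SE 0.152, adjusted p = 8.81e-04 in edgeR). Rsad2 was 4.20-fold lower (-2.07) and Ifit3 3.63-fold lower (-1.86). Ifit2 was 2.69-fold lower (-1.43), and Ifit1 fell least, 2.02-fold (-1.02, SE 0.167, adjusted p = 0.00797 in edgeR), just past the fold that makes a call. All 6 were called lower, where 2.42% of 14234 genes were called higher and 3.65% lower, and the members' median log2 fold change was -1.97 against 0.03 over all genes. The direction held whichever library was left out, but the calls did not: without replicate 1, 2 or 3 of LPS+ cre, 0, 0 and 1 of the members passed both criteria, with adjusted p of up to 0.0549 in edgeR and log2 fold changes still between -2.61 and -0.91, and 5 and 4 passed without replicate 2 or 3 of LPS- cre. Fewer were also called with all 12 libraries in a single fit (4, without Ifit1 and Ifit2), with no filter beyond 1 count (5, without Ifit1), with the sum over transcripts (5, without Ifit2) and with the replicate number as a block (3, without Ifit1, Ifit2 and Cmpk2). The share of all genes called was not recorded for these settings or with a library left out. Whether the loss of calls is particular to the members is therefore not known. Of the marker sums, those of neutrophils (5.41 to 7.64 CPM under LPS+ cre against 14.7 to 186), fibroblasts (29.3 to 43.2 against 137 to 1462) and macrophages (7801 to 8026 against 17890 to 21364) were also lower without overlap, and their part in the members' values was not tested. The macrophage sum was lower mainly through Lyz2 (52.6 to 75.6 CPM against 5950 to 9491); 5 of the 8 markers were lower without overlap, and Csf1r (1629 to 1788 CPM against 1039 to 1704), Cd68 and Mertk overlapped.

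LPS+ tlr4f/f and LPS- tlr4f/f made the last pair. As headed, this is the effect of LPS in tlr4f/f BMDMs; with the headings exchanged, it is the effect of the genotype without LPS. Every member was lower under LPS+ tlr4f/f, without overlap between the groups, but none passed the test, and 18.8% of 14701 genes were also lower without overlap and 16.6% higher. Ifit3b had a log2 fold change of -2.62 (SE 0.393, adjusted p = 0.0487 in edgeR), Ifit3 of -2.05 (SE 0.339, adjusted p = 0.0512 in edgeR) and Ifit1 of -1.96 (SE 0.430, adjusted p = 0.0718 in edgeR), or -1.31 without replicate 1 of LPS- tlr4f/f. The values of Rsad2, Ifit2 and Cmpk2 were -1.33, -1.21 and -1.13, with adjusted p between 0.0697 and 0.122 in edgeR. The background was as empty: 0% of 14701 genes were called higher and 0% lower by edgeR, although 3624 of them and all 6 members had an unadjusted p below 0.05. DESeq2 called 5 of the members lower, Ifit2 being the exception, where it called 1.67% of 13507 genes lower and 1.78% higher. Without replicate 3 of LPS- tlr4f/f, in which every member but Ifit3b was lowest within that group, edgeR called Rsad2 (-1.66, adjusted p = 0.00308) and Cmpk2 (-1.36, adjusted p = 0.00497). The share of all genes called without that library was not recorded, and the 0% above is from the fit with every library. With every library, the median log2 fold change was -1.64 for the members and -0.03 for all genes. The macrophage sum was also lower without overlap (4417 to 4682 CPM against 13763 to 29499), mainly through Lyz2 (10.4 to 14.3 CPM against 6567 to 23264), with 5 of the 8 markers lower without overlap. The plasmacytoid dendritic cell sum was higher (2.13 to 3.03 CPM against 0.61 to 0.855), mainly through Cox6a2, and the neutrophil and fibroblast sums overlapped. The part of these in the members' values was not tested.

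The interaction asks whether the effect of LPS differed between the genotypes, and it is the same number in both readings of the headings. No member was called by edgeR over all 12 libraries, where 0.659% of 15775 genes were called higher and 0.38% lower, and 1 of the 6 members had an unadjusted p below 0.05, as had 3706 of all genes tested. That member was Cmpk2, with an interaction of -1.32 on the log2 scale (SE 0.415, unadjusted p = 0.00875, adjusted p = 0.0822 in edgeR), and DESeq2 called it (-1.41, adjusted p = 0.00919), as it called 2.31% of 12964 genes lower and 2.76% higher. Ifit1 stood at the other end, at 0.96 (SE 0.474, adjusted p = 0.255 in edgeR), which was 0.32 without replicate 1 of LPS- tlr4f/f. Rsad2 had -0.74, Ifit2 -0.21, Ifit3 0.20 and Ifit3b 0.24, each with an SE between 0.373 and 0.470 and an adjusted p above 0.05 in edgeR. The sign of the last 3 turned with 1 library left out: Ifit2 was 0.10 without replicate 3 of LPS- tlr4f/f and 0.029 without replicate 2 of LPS- cre, and Ifit3 and Ifit3b were -0.17 and -0.27 without replicate 1 of LPS- tlr4f/f. With the headings exchanged, Cmpk2 thus rose 74.2-fold with LPS in tlr4f/f and 29.9-fold in cre, and Ifit1 25.7-fold and 50.1-fold, and in neither gene did the difference between genotypes pass the edgeR criteria.

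**Figure D3:**
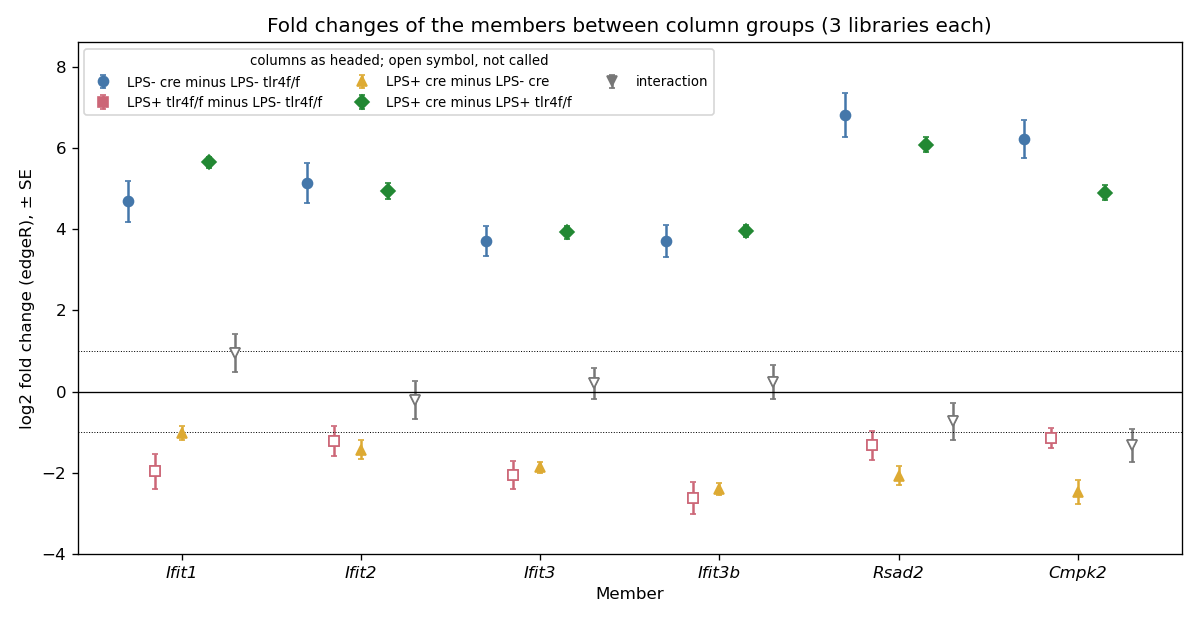
Log2 fold changes of the members (edgeR, bars are SE) in the 4 comparisons of column groups and in the interaction, columns as headed; open symbols were not called and dotted lines mark a 2-fold change. The members stand between 3.71 and 6.80 where the LPS- cre or LPS+ cre libraries are compared with tlr4f/f libraries of the same LPS heading, and below 0 where LPS+ is compared with LPS- libraries of the same genotype heading.

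Levels of different members can be compared per length of transcript (CPM per kb). The length was that of the transcript taken, and for Ifit2, Ifit3 and Ifit3b another transcript held nearly as many counts. The order of members at close levels, and the levels of Ifit3 and Ifit3b, which share stretches, are therefore uncertain. Per kb, Ifit3 was the highest member under LPS- tlr4f/f, at a mean of 57.4, where Ifit1 had 32.8, Ifit2 29.1, Cmpk2 26.9, Rsad2 19.2 and Ifit3b 9.55. Under LPS- cre other members came first: Rsad2 had 2169 and Cmpk2 2021, and Ifit2 1039, Ifit1 850.4, Ifit3 759 and Ifit3b 126. Under LPS+ cre Rsad2 was again first at 512 CPM per kb, followed by Ifit1 at 418, Ifit2 at 383, Cmpk2 at 362, Ifit3 at 208 and Ifit3b at 23.8. Ifit3b was the lowest member in all 4 groups.

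The shares of the members in their summed CPM per kb therefore moved. Ifit3 made up 32.7% ± 3.01 of the sum under LPS- tlr4f/f and 24.5% ± 1.06 under LPS+ tlr4f/f, but 11.2% ± 1.78 under LPS- cre and 10.9% ± 0.453 under LPS+ cre (SD, n = 3 each). Rsad2 went the other way, with 10.8% ± 2.29 and 13.6% ± 0.424 under the tlr4f/f headings, and 31.1% ± 0.0835 and 26.8% ± 0.785 under LPS- cre and LPS+ cre. Between LPS- cre and LPS+ cre, every share but that of Ifit3 differed without overlap, most for Ifit1 and Cmpk2. Ifit1 held 12.5% ± 1.85 under LPS- cre and 21.9% ± 0.305 under LPS+ cre, and Cmpk2 28.4% ± 3.99 and 18.9% ± 0.569. Ifit2 held 14.8% ± 1.96 and 20.2% ± 1.33 in the same order.

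**Figure D4:**
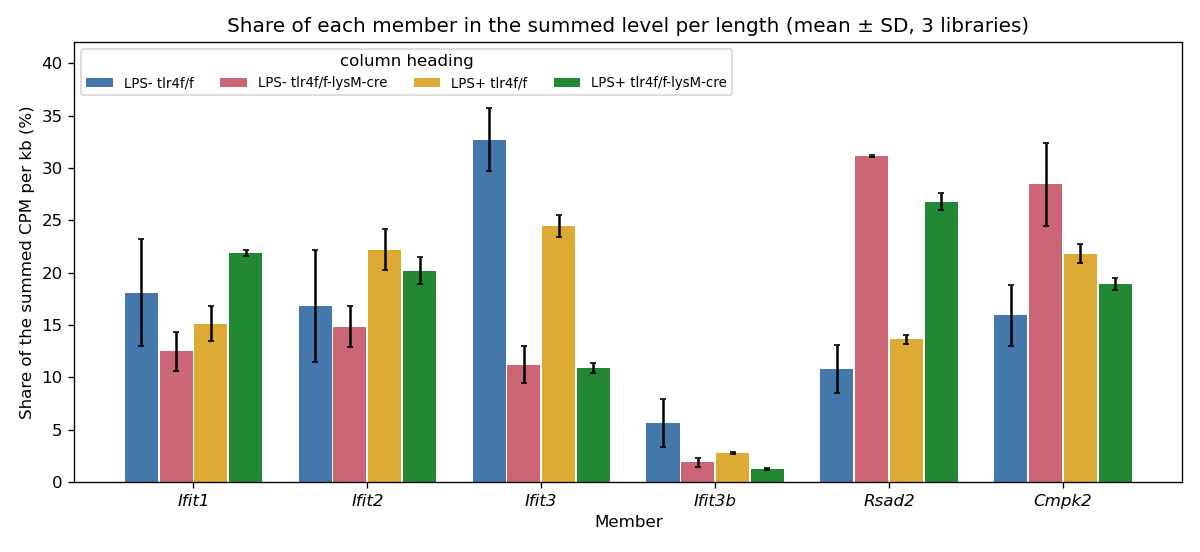
Share of each member in the summed CPM per kb of the 6 members (bars, mean of 3 libraries; error bars, SD) for the 4 column headings. Ifit3 and Ifit3b have their largest shares under LPS- tlr4f/f, Rsad2 and Cmpk2 under LPS- cre.

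Ratios between members within a library show the same shift pair by pair and, like the shares, do not depend on the scaling between libraries. Rsad2 per Ifit1, both per kb, was between 2.21 and 2.99 under LPS- cre, between 1.21 and 1.24 under LPS+ cre, between 0.82 and 0.952 under LPS+ tlr4f/f and between 0.424 and 1.02 under LPS- tlr4f/f. Neither cre group overlapped with any other group in this ratio, and the tlr4f/f groups overlapped. The neighbours kept closer to each other: Rsad2 per Cmpk2 was between 0.958 and 1.26 under LPS- cre and between 1.40 and 1.44 under LPS+ cre, against 0.531 to 0.79 and 0.591 to 0.664 under LPS- and LPS+ tlr4f/f. Ifit3 per Ifit1 was lowest under LPS+ cre, at 0.483 to 0.531, and then under LPS- cre, at 0.825 to 0.981, and at least 1.39 in every library headed tlr4f/f. Ifit3 per Ifit3b, subject to the shared stretches, was between 5.58 and 6.78 under LPS- cre and between 8.21 and 9.71 in all libraries headed LPS+, so that these did not overlap, and it spread from 4.51 to 9.38 under LPS- tlr4f/f.

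Across the 12 libraries the log2 CPM of the members moved together, with Pearson's r between 0.930 and 0.997 over the 15 pairs. The libraries share their groups and depth, so this is a description and mostly shows the group levels. After the group means were taken away, r of the remaining deviations lay between 0.0111 (Ifit2 with Ifit3b) and 0.918 (Ifit2 with Rsad2). In these deviations, pooled over the 4 groups, Ifit2, Rsad2 and Cmpk2 kept together, at 0.860 for Ifit2 with Cmpk2 and 0.913 for Rsad2 with Cmpk2, and Ifit1 kept with Ifit3, at 0.914. The division was not sharp: Ifit3 with Rsad2 was at 0.838, Ifit1 with Ifit3b at 0.822 and Ifit1 with Ifit2 at 0.463. Nor was it seen in each group: under LPS+ cre, Ifit1, Ifit2, Rsad2 and Cmpk2 all rose from replicate 1 to replicate 3. Among 15769 other genes, the 5 whose log2 CPM was most like the mean of the members over the 12 libraries were Igtp (r = 0.998), LOC102639982 (0.996), Prdx5 (0.996), Ddx58 (0.995) and Stat2 (0.995). These were not alone, since 577 genes had an r above 0.95.

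The genes that act before and beside the members were described by a list of 25: ligands, receptor, kinases and factors of the type I interferon pathway, RNA sensors, Isg15 and its enzyme, feedback inhibitors and 2 IFIT relatives. Of the ligands, Ifna4 had no count in any library. Ifnb1 had 96, 141 and 150 counts under LPS- cre and 13, 17 and 23 under LPS+ cre, where it fell by 3.15 on the log2 scale (adjusted p = 0.00261 in edgeR). It had 1 or 2 counts in each LPS- tlr4f/f library and 0 in each LPS+ tlr4f/f library, so no fold against these is given.

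Between LPS- cre and LPS- tlr4f/f libraries, 18 of the 24 list genes tested were called higher and 1, Mavs, lower (log2 fold change -1.05). The receptor subunit Ifnar2 rose by 1.53 and the kinases Jak1 and Tyk2 by 1.29 and 1.82. The other subunit, Ifnar1, had 1.33 and was not called (adjusted p = 0.0180 in edgeR). Of the factors that bind the ISRE, Stat2 rose by 2.53, while Irf9 had 0.73 and was below the fold for a call. Irf3, which is activated by phosphorylation and not by its own level, had -0.16 and was not called. The feedback inhibitors Usp18 and Socs1 rose by 4.22 and 5.95, the sensor Ifih1 by 3.90, and Isg15, a ubiquitin-like protein, by 4.28. The relative Ifit1bl1 rose by 7.67, more than any member, from 0.523 to 3.24 CPM to between 120.1 and 597. Fewer list genes were called whichever library was left out, between 10 and 15. The lowest counts were 10 without replicate 2 of LPS- tlr4f/f and 11 without replicate 2 of LPS- cre. The share of all genes called in those fits was not recorded. Between LPS+ cre and LPS+ tlr4f/f libraries, 19 of 24 were called higher and none lower, among them Ddx58 (2.87), Usp18 (4.04), Isg15 (4.05), Socs1 (5.54) and Ifit1bl1 (5.55). Here Ifnar1 (1.40) was called, and Ifnar2 (0.94) and Jak1 (0.45) were below the fold for a call.

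Between LPS+ cre and LPS- cre libraries, 6 of 24 list genes were called lower and none higher. Besides Ifnb1 they were Irf7, which amplifies interferon production (-2.17), Isg15 (-1.95), Usp18 (-1.70), Ifih1 (-1.27) and Stat2 (-1.10). Without replicate 1, 2 or 3 of LPS+ cre none of them was called by edgeR, as 0 of the list genes then passed both criteria. No share of all genes called was recorded for those fits. Between LPS+ and LPS- tlr4f/f libraries edgeR called none of 23, although 14 had an unadjusted p below 0.05 (3624 of all 14701 genes) and DESeq2 called 3; Usp18 had the smallest adjusted p, 0.0402 in edgeR, at -1.50. None of 24 was called in the interaction by edgeR, with 7 at an unadjusted p below 0.05 (3706 of all 15775 genes) and 0 called by DESeq2. The medians of the list were 2.19, 2.16, -0.86, -0.62 and -0.15 on the log2 scale for these 4 comparisons and the interaction, beside 4.91, 4.92, -1.97, -1.64 and -0.0041 for the members.

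**Figure D5:**
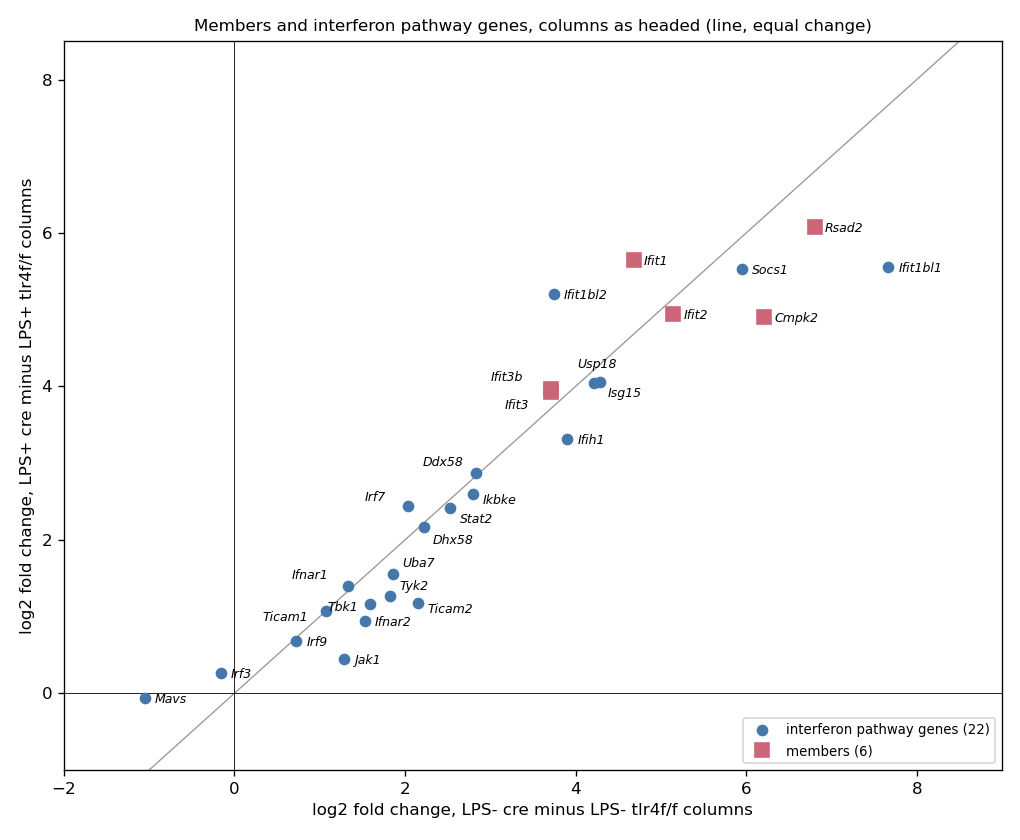
Log2 fold change between cre and tlr4f/f columns as headed, without LPS (horizontal) and with LPS (vertical), for the 6 members (squares) and 22 pathway genes (circles); these axes share no library and the line marks equal change. Rsad2, Cmpk2 and Ifit2 lie below the line and Ifit1 above it. Genes with a group of at most 3 counts per library (Ifnb1, Ifna4) are not drawn, nor is the list gene whose result is not reported.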

How the data were processed

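RNA of 12 BMDM libraries (3 per column heading) was sequenced by the authors as paired reads of 150 bases. Labels name both rRNA removal and polyA selection, and no strand setting is given, so overlapping genes on opposite strands cannot be told apart. Per the submitters' processing notes, reads were trimmed with Trimmomatic 0.36, aligned to mm10 with HISAT2 and counted with HTSeq; the notes also name FastQC. The authors deposited whole-number counts without normalization for 115140 transcripts. Transcripts of a gene share reads: the second row held 99.98%, 99.5% and 96.2% of the first for Ifit2, Ifit3 and Ifit3b, and 28.1% for Cmpk2, while Ifit1 and Rsad2 had 1 row. The row with the highest total was taken.

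Counts were tested with edgeR 4.0.16 in R 4.3.3 (filterByExpr, TMM, robust quasi-likelihood), with the 6 libraries of a comparison or all 12 for the interaction. Calls used the study's thresholds (a fold of 2, an adjusted p of 0.01); the study used DESeq. A log2 CPM used a prior count of 2. The named genes are the members, the pathway list, the 5 most alike genes, the checks of the headings and cell type markers. The result of 1 gene of the pathway list is not reported here, though the counts and medians of the list include it. The members and lists were chosen with earlier results of these data known. Alternatives were DESeq2 1.42.0, RLE factors, other filters (1 count in all, 10 in every library), the sum over rows, an adjusted p below 0.05, a replicate block, a single fit of 12 libraries and each library left out. The tests were checked on simulated data, and no result of that check is given here. Counts without molecular identifiers carry PCR copies. No column was left unmapped.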

Additional observations from a re-analysis of the deposited data

How the results depend on the processing

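All 6 members stayed called between LPS- cre and LPS- tlr4f/f and between LPS+ cre and LPS+ tlr4f/f libraries under every alternative run. Over all comparisons, 408 of 450 alternative values of single members kept their direction and side of the criteria, 27 lost a call, 11 gained one and 4, all of them interactions, changed sign. Between LPS+ and LPS- tlr4f/f libraries, where edgeR called 0 members and 0 list genes, DESeq2 called 5 and 3, an adjusted p below 0.05 called 1 and 1, a single fit of 12 libraries 2 and 1, and no filter beyond 1 count 1 list gene. Leaving out each library gave 0 to 2 members and 0 to 2 list genes, the 2 and 2 without LPS- tlr4f/f replicate 3. Between LPS+ cre and LPS- cre libraries, leaving out each library gave 0 to 6 members and 0 to 9 list genes, a single fit of 12 libraries called 4 members, no filter and the sum over rows 5 each, and DESeq2 called 10 list genes; the cause was not tested. The list genes called between LPS- cre and LPS- tlr4f/f libraries ranged from 10 to 15 with a library left out. In the interaction, DESeq2 called 1 member, and leaving out a library gave 0 to 1 list genes. For fits with a library left out, the share of all genes called was not recorded, so these counts have no background beside them. With libraries left out, the interaction ranged from 0.32 (without LPS- tlr4f/f replicate 1) to 1.25 for Ifit1, from -0.56 to 0.10 for Ifit2 (above 0 without LPS- tlr4f/f replicate 3, and 0.029 without LPS- cre replicate 2), from -0.17 to 0.46 for Ifit3 and from -0.27 to 0.50 for Ifit3b (both below 0 without LPS- tlr4f/f replicate 1).

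The deviations of same-numbered libraries had an r over 0.1 in 5 of 18 pairs of libraries (between -0.04 and 0.472). Between LPS- tlr4f/f and LPS- cre, same numbers had 0.472, 0.340 and 0.0143, and different numbers -0.491 to 0.203. Between LPS+ tlr4f/f and LPS+ cre, same numbers had 0.0584 to 0.190, and different numbers -0.114 to 0.0447. With the headings exchanged, both are pairs of 1 genotype without and with LPS. These values do not settle whether the numbers pair samples, and the main fits used no replicate block. With the replicate block, 3 members and 3 list genes were called between LPS+ cre and LPS- cre libraries. RLE factors moved the median of all genes by at most 0.09 on the log2 scale. Every member had at least 130 counts in each library, but Ifnb1 and Ifit1bl2 had few counts under the tlr4f/f headings.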

Other observations

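The genes most like the members changed with the measure of likeness. By Spearman's rho over the 12 libraries the first 5 were Dhx58, Ifih1, Rnf213, Rtp4 and Slc25a22, each at 0.993. By the deviations from the group means they were Galnt2 (r = 0.949), Isca2 (0.948), Gm38832 (0.947), Cobll1 (0.940) and Tgtp2 (0.939), and Galnt2 and Gm38832 had a negative r with the members over the libraries themselves, at -0.67 and -0.62. Igtp, first by Pearson's r, was 55th and 21st by these measures. These values are descriptions over 12 libraries that share their groups and depth.

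Markers of conventional dendritic cells, 4 genes, summed to between 2.91 and 6.10 CPM under LPS- cre and between 2.56 and 3.03 under LPS+ cre, and to at most 0.65 under the tlr4f/f headings. Most of this was Xcr1, at 2.63 to 5.48 CPM under LPS- cre and 2.07 to 2.71 under LPS+ cre, while Flt3 reached at most 0.0552 CPM in any library and Cd209a was at 0 under LPS- cre. Those of plasmacytoid dendritic cells, which make much interferon, summed to 2.44 to 9.28 CPM under LPS- cre, against 0.61 to 0.855 under LPS- tlr4f/f. They summed to between 4.88 and 5.71 CPM under LPS+ cre, against 2.13 to 3.03 under LPS+ tlr4f/f. Nearly all of these sums came from Ccr9 and Cox6a2: Siglech reached at most 0.0444 CPM in any library and Klk1 at most 0.131, under LPS- tlr4f/f. Markers of lymphocytes summed to at most 1.18 CPM in every library. The part of these cells in the members' values was not tested.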
